A study of Mus musculus with 18 samples.

Results

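Heat shock proteins, their J-domain partners, the chaperonins, the BAG proteins and the FKBP prolyl isomerases were followed in enriched male germ cells of 3 mouse genotypes. The members are the genes whose symbol starts with Hsp, Dnaj, Fkbp, or with Cct or Bag and a number, without Dnajc28 and Hspg2, and they number 45 genes on 55 probes out of 8102 genes named on the array. Ts65Dn mice carry an extra marker chromosome with distal chromosome 16 and proximal chromosome 17. Ts1Cje mice carry a shorter extra stretch of distal chromosome 16 on a translocation to chromosome 12. WT mice were diploid littermates, and the labels do not say of which model. Germ cells were taken 16-17 or 19-20 days post partum (dpp), when the first wave of germ cells passes through late meiotic prophase. Each of the 6 groups has 3 biological replicate RNA samples, 1 array each. Of the 45 members 33 were tested, and 31 of them, all except Dnajc6 and Dnajc11, were detected above the negative controls on all 18 arrays. The remaining 12, Cct8l1, Dnaja1, Dnaja2, Dnajb4, Dnajb9, Dnajc1, Dnajc10, Dnajc19, Dnajc22, Hspa12a, Hspa13 and Hspe1-ps2, were below the detection limit on all arrays or on all but 1. No member lies in the extra segments: Dnaja3, Hspbap1 and Hspa13 are on chromosome 16 before Mrpl39, where the Ts65Dn segment begins, and Bag6 and Hsp90ab1 are on chromosome 17 beyond Pde10a, near its end.

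Chaperones bind unfolded stretches of other proteins and keep them from clumping while they fold, move or await destruction. HSP70 proteins do this in cycles of ATP use that J proteins start and nucleotide exchange factors such as BAG proteins end, HSP90 proteins finish the folding of kinases and steroid receptors, and chaperonins enclose a client in a chamber. Male germ cells are known for chaperones of their own and for needing several of them to get through meiosis, and under heat the factor HSF1 binds heat shock elements in the promoters of many of these genes.

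The promoters of 5 members that the results below turn on are shown first, because Hspe1 and Hspd1 share theirs and because the windows differ in the motifs found. All come from RefSeq on GRCm38.p6, cover 250 bases before to 50 bases after a start site, and are written 5′ to 3′ on the strand of the gene. Such windows were at hand for 32 of the 45 members, 43 windows in all. Capitals mark, in Hspe1 (chr1:55087898-55088197, plus strand), 2 overlapping heat shock elements of 3 units. They mark in Hspb1 (chr5:135887669-135887968, plus) 2 separate heat shock elements of 2 units, in Hspa5 (chr2:34771840-34772139, plus) the ER stress response element and in Dnajc27 (chr12:4082324-4082623, plus) the cyclic AMP response element. Left in lower case are a heat shock element of 2 units (GAAGATTC) and CCAAT boxes in Dnajc27, and further CCAAT boxes in Hspa5. Dnajb2 (chr1:75236173-75236472, plus) held none of the motifs searched and has no capitals.
Hspe1: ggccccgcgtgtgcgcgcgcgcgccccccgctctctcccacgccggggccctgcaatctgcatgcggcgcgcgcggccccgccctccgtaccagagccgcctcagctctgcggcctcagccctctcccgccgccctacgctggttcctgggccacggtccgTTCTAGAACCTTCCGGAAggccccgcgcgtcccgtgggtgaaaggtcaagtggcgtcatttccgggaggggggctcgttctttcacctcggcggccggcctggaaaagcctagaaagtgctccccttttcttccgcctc
Hspb1: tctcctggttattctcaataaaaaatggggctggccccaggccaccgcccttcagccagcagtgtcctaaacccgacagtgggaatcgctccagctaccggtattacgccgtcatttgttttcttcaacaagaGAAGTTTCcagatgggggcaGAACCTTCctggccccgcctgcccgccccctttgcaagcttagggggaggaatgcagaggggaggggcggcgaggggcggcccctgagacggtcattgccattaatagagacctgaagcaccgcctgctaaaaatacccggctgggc
Hspa5: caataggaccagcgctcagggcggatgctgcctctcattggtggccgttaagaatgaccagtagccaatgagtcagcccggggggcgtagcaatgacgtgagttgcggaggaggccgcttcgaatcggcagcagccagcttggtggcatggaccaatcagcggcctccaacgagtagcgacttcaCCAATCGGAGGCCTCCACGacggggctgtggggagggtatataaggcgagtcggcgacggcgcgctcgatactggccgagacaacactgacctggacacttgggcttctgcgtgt
Dnajc27: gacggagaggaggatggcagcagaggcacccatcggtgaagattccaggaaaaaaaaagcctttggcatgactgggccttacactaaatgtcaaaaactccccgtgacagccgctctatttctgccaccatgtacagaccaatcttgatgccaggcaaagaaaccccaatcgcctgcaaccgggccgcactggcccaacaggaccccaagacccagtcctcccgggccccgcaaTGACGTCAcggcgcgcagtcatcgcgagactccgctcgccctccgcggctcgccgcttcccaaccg
Dnajb2: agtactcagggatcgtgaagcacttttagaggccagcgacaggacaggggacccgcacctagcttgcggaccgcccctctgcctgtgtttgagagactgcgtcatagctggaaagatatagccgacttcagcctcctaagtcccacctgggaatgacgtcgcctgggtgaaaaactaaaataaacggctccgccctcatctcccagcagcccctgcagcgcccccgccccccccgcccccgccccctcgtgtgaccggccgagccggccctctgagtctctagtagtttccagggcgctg

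The heat shock element of 3 units was searched as GAANNTTC followed by NNGAA, or TTCNNGAA followed by NNTTC. It occurred in 0.603% of all 32851 promoter windows and in those of 3 members, Hspd1, Hspe1 and Dnajb6. The pair Hspd1 and Hspe1 are transcribed away from each other, and the same bases, chr1:55088059-55088076, fell in the Hspe1 window and in a Hspd1 window on the opposite strand (chr1:55087883-55088182). The element of 2 units (GAANNTTC or TTCNNGAA, both contained in the longer one) occurred in 15.1% of all windows and in those of 10 members, which besides these 3 were Hspb1, Fkbp4, Dnajc27, Cct8l1, Dnaja1, Dnajb4 and Dnajc10. The letters TGACGTCA of the cyclic AMP response element occurred in 1.79% of all windows and in that of 1 member, Dnajc27. CCAAT, on either strand, occurred in 37.4% of all windows and in those of 11 members. The ER stress response element, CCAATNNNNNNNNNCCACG, which contains a CCAAT box, was added to the search after the windows had been read, and it occurred in 0.119% of all windows and in that of 1 member, Hspa5. These are matches of letters and not measured binding.

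**Figure D1:**
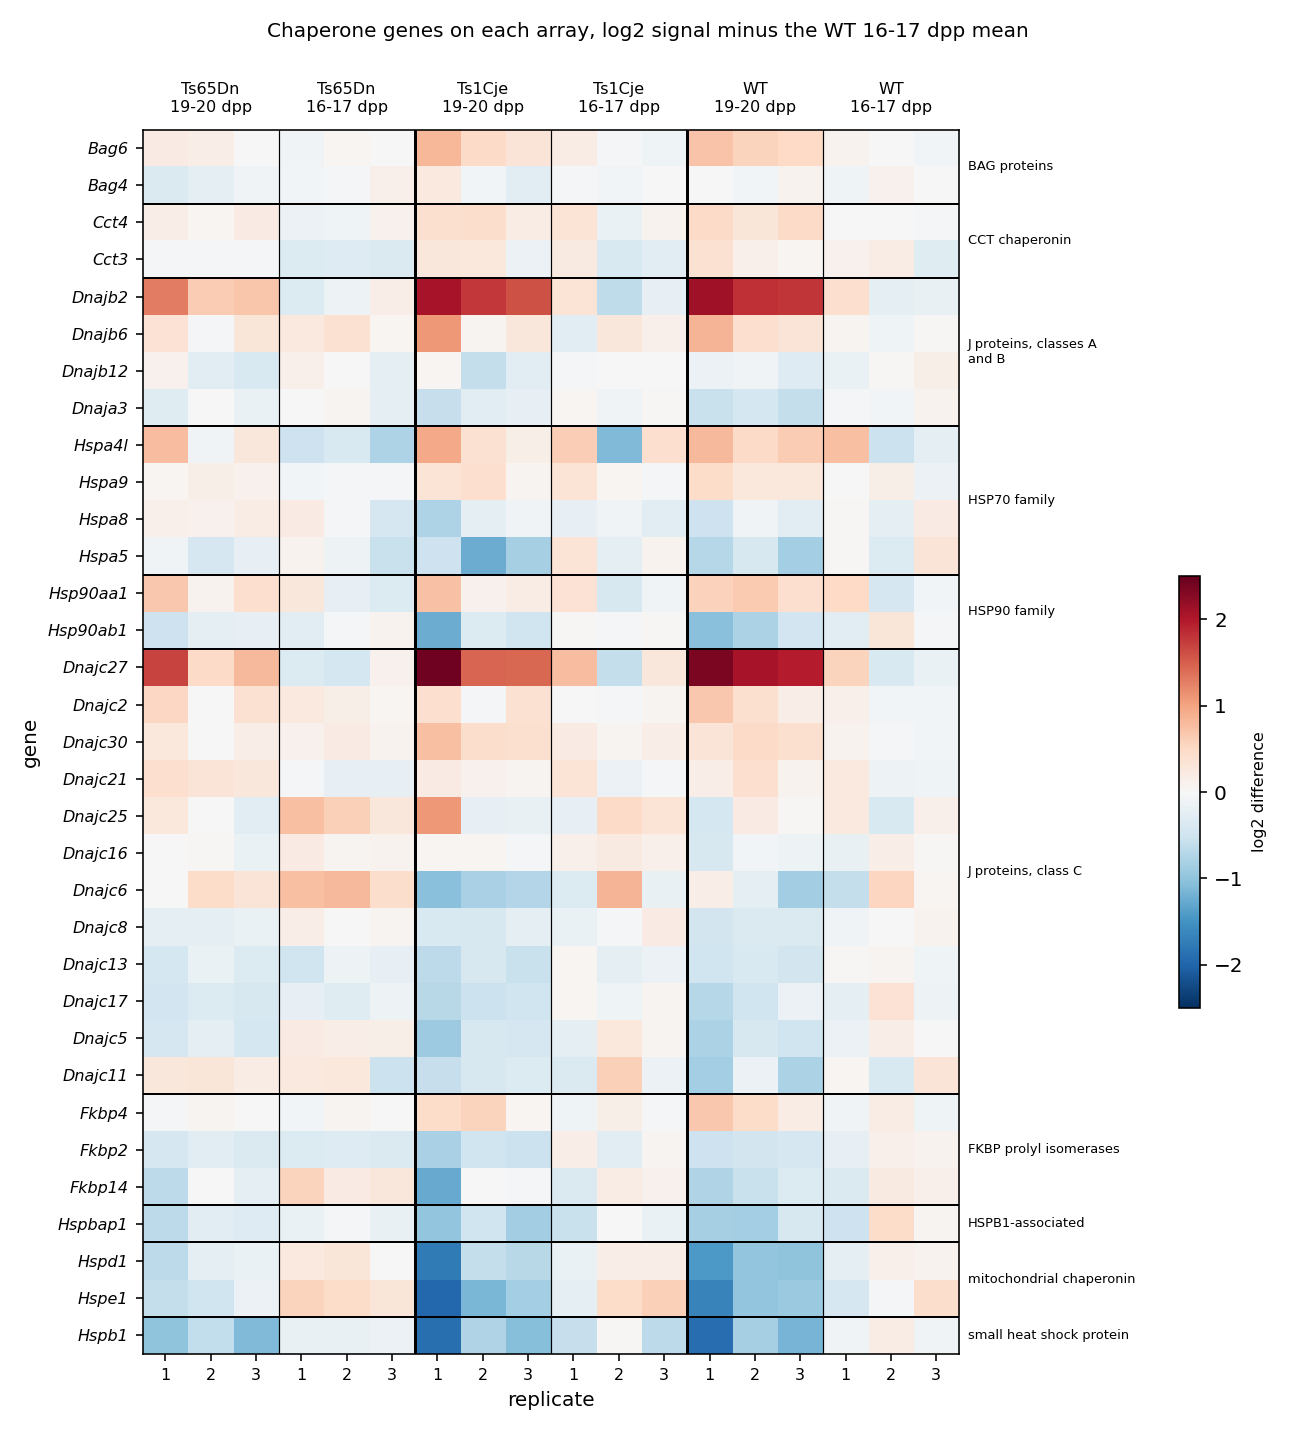
Log2 signal of the 33 tested members (rows, grouped by role) on each of the 18 arrays (columns), as the difference from the mean of the 3 WT arrays at 16-17 dpp of the same probe; red is higher and blue lower. Dnajb2 and Dnajc27 stand out as higher and Hspd1, Hspe1 and Hspb1 as lower on the Ts1Cje and WT arrays at 19-20 dpp.

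The first comparison asks how the members change as WT germ cells go from 16-17 to 19-20 dpp. All tests are contrasts of a limma model over the 18 arrays, with p-values adjusted by the Benjamini-Hochberg method over all 21337 tested probes, and a gene is called at an adjusted p under 0.05. Between the ages 18 of 33 members were called, 6 higher and 12 lower, where 46.7% of all tested probes were called, 18.5% higher and 28.1% lower, and 50.1% of named genes. The members' share was thus close to that of the array as a whole. Their median change was −0.20 on the log2 scale, beside −0.23 over all probes. When each array was scaled to its median in place of quantile normalisation, 6 were higher and 4 lower, beside 33.2% of all probes called. The share of higher probes among all called probes was then 53.5%, against 39.7% after quantile normalisation. A fit of only both WT groups called 11 members, beside 45.4% of all probes. It missed Cct4, Dnajc8, Dnajc17, Dnajc30, Fkbp2, Fkbp4 and Hspbap1 (adjusted p 0.052 to 0.15). Leaving out WT 19-20 dpp replicate 1 left 8 calls, leaving out replicate 2 of the younger WT group left 9 and leaving out its replicate 3 left 10. For fits without 1 array, here and below, no share of all probes is given beside the counts. Whether such losses were particular to the members was not tested. Without any 1 array the calls of 7 members held, which were Bag6, Dnaja3, Dnajb2, Dnajc27, Hspb1, Hspd1 and Hspe1. In such mixed samples fewer cells of a type and less RNA per cell cannot be told apart. The age groups did not overlap for 19 members, 57.6% of them, against 59.7% of all probes.

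Among the J proteins, which hand clients to HSP70, classes A and B held the member with the lowest adjusted p. In WT 1 of their 4 tested members rose and 1 fell, which is 50%, beside 46.7% of all probes called. Dnajb2, which binds ubiquitinated clients and steers them to the proteasome, had log2 signals of 13.37, 12.73 and 12.78 in Ts65Dn at 19-20 dpp, against 11.74, 11.96 and 12.26 at 16-17 dpp. In Ts1Cje it had 14.15, 13.85 and 13.68 at 19-20 dpp, against 12.44, 11.46 and 11.88 at 16-17 dpp. In WT it had 14.21, 13.90 and 13.87 at 19-20 dpp, against 12.51, 11.85 and 11.90 at 16-17 dpp. Every older array lay above every younger one in all 3 genotypes, and the older Ts65Dn arrays lay below all older arrays of Ts1Cje and WT. Dnajb2 rose by 0.97 ± 0.26 in Ts65Dn (log2, SE, n = 3 and 3, limma adjusted p = 0.04), by 1.97 ± 0.26 in Ts1Cje (adjusted p = 0.00018) and by 1.91 ± 0.26 in WT (adjusted p = 0.00021). Of the other members of these classes Dnaja3, a mitochondrial J protein, was at −0.10 in Ts65Dn (adjusted p = 0.66) and −0.34 in Ts1Cje (adjusted p = 0.055) and fell in WT (−0.53 ± 0.14, adjusted p = 0.0085, and 0.22 with median scaling). Dnajb6, which holds back the aggregation of polyglutamine proteins, was at 0.54 in WT (adjusted p = 0.073), and Dnajb12, a J protein of the ER membrane, at −0.19 ± 0.18.

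Class C holds J proteins with varied extra domains, of which 12 were tested. In Ts1Cje 2 rose and 5 fell, which is 58.3% of them, beside 45.3% of all probes called. In WT 2 rose and 4 fell, 50%, beside 46.7% of all probes. Dnajc27, a small GTPase of the Ras superfamily with a J domain, had 11.86, 10.66 and 10.98 in Ts65Dn at 19-20 dpp, against 9.83, 9.74 and 10.28 at 16-17 dpp. Its values in Ts1Cje were 12.61, 11.63 and 11.60 at 19-20 dpp, against 10.96, 9.59 and 10.46 at 16-17 dpp. Its values in WT were 12.53, 12.23 and 12.13 at 19-20 dpp, against 10.73, 9.79 and 10.01 at 16-17 dpp. The age groups were apart in each genotype, and among the older Ts65Dn arrays only replicate 1 reached the range of Ts1Cje. The change was 1.22 ± 0.39 in Ts65Dn (adjusted p = 0.06, not called), and the gene rose by 1.62 ± 0.39 in Ts1Cje (adjusted p = 0.0043) and by 2.12 ± 0.39 in WT (adjusted p = 0.0012).

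Dnajc30, a mitochondrial J protein, had 11.55, 11.28 and 11.44 in Ts65Dn at 19-20 dpp, against 11.39, 11.49 and 11.36 at 16-17 dpp. Arrays of Ts1Cje mice gave 12.03, 11.72 and 11.69 at 19-20 dpp, against 11.48, 11.36 and 11.46 at 16-17 dpp. Arrays of WT mice gave 11.61, 11.76 and 11.68 at 19-20 dpp, against 11.37, 11.26 and 11.21 at 16-17 dpp. The age groups overlapped in Ts65Dn and were apart in Ts1Cje and WT. It was at 0.01 ± 0.13 in Ts65Dn (adjusted p = 0.96) and rose by 0.38 ± 0.13 in Ts1Cje (adjusted p = 0.026) and by 0.40 ± 0.13 in WT (adjusted p = 0.022). Its WT call was lost without WT 16-17 dpp replicate 2 or 3 or WT 19-20 dpp replicate 2 (adjusted p 0.063 to 0.075) and with median scaling (adjusted p = 0.058). The Ts1Cje call was lost without Ts1Cje 16-17 dpp replicate 2 or 3 or Ts1Cje 19-20 dpp replicate 1 (adjusted p 0.05 to 0.11) and with median scaling (adjusted p = 0.10).

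Another 4 class C members, Dnajc5, Dnajc8, Dnajc13 and Dnajc17, fell in both Ts1Cje and WT. Dnajc5, the cysteine string protein of secretory vesicles, was at −0.54 in Ts65Dn (adjusted p = 0.061) and changed by −0.61 ± 0.17 in Ts1Cje (adjusted p = 0.01) and −0.56 ± 0.17 in WT (adjusted p = 0.017). Dnajc17, a nuclear J protein, was at −0.19 in Ts65Dn and changed by −0.58 in Ts1Cje and −0.46 in WT. Dnajc13, which acts on endosomes, was at −0.04 in Ts65Dn and changed by −0.43 in Ts1Cje and −0.44 in WT. Dnajc8, a spliceosome-associated J protein, was at −0.29 in Ts65Dn and changed by −0.35 in Ts1Cje and −0.40 in WT. None of the 4 was called in Ts65Dn. In WT all 4 lost their call without replicate 2 at 16-17 dpp or replicate 1 at 19-20 dpp (adjusted p 0.052 to 0.22) and with median scaling (adjusted p 0.082 to 0.22). The calls of Dnajc8 and Dnajc17 were also lost without WT 16-17 dpp replicate 3, and that of Dnajc17 without WT 19-20 dpp replicate 2. In Ts1Cje all 4 lost it without replicate 1 at 19-20 dpp (adjusted p 0.052 to 0.077). There Dnajc5 and Dnajc8 also needed replicate 2 at 16-17 dpp, Dnajc8 replicate 3 at 16-17 dpp and replicate 2 at 19-20 dpp, and Dnajc13 replicate 1 at 16-17 dpp. The largest class C changes that limma did not call in WT were −0.60 for Dnajc11, a mitochondrial J protein, 0.41 for the ribosome-associated Dnajc2 and −0.31 for Dnajc6, and Dnajc16, Dnajc21 and Dnajc25 lay between −0.20 and 0.22. In WT Dnajc11 was detected on 3 of 3 arrays at 16-17 dpp but on 1 of 3 at 19-20 dpp, and Dnajc6 on 2 of 3 at each age.

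Both mitochondrial chaperonin genes fell with age in Ts1Cje and WT, where 45.3% and 46.7% of all probes were called. Hspd1, the HSP60 chamber of mitochondria, had 12.62, 13.06 and 13.11 in Ts65Dn at 19-20 dpp, against 13.53, 13.59 and 13.28 at 16-17 dpp. In Ts1Cje it had 11.52, 12.69 and 12.60 at 19-20 dpp, against 13.12, 13.45 and 13.45 at 16-17 dpp. In WT it had 11.84, 12.29 and 12.28 at 19-20 dpp, against 13.06, 13.41 and 13.38 at 16-17 dpp. The older arrays were below the younger ones in each genotype, Ts1Cje 19-20 dpp replicate 1 being lowest of all. Hspe1, the HSP10 lid of that chamber, had 10.58, 10.67 and 11.03 in Ts65Dn at 19-20 dpp, against 11.74, 11.65 and 11.49 at 16-17 dpp. Its values in Ts1Cje were 9.22, 10.04 and 10.33 at 19-20 dpp, against 10.93, 11.64 and 11.78 at 16-17 dpp. Its values in WT were 9.50, 10.18 and 10.26 at 19-20 dpp, against 10.75, 11.16 and 11.63 at 16-17 dpp. Again no older array overlapped the younger ones of its genotype. The change of Hspd1 was −0.53 ± 0.26 in Ts65Dn (adjusted p = 0.18), −1.07 ± 0.26 in Ts1Cje (adjusted p = 0.0048) and −1.14 ± 0.26 in WT (adjusted p = 0.0043). That of Hspe1 was −0.86 ± 0.31 in Ts65Dn (adjusted p = 0.087), −1.59 ± 0.31 in Ts1Cje (adjusted p = 0.0015) and −1.20 ± 0.31 in WT (adjusted p = 0.008). The WT calls of both genes, whose shared promoter stands above, held without any 1 of the 6 arrays and under all 9 other settings. Dnajb6, the other member with a heat shock element of 3 units, was at −0.02 in Ts65Dn, 0.43 in Ts1Cje and 0.54 in WT, not called.

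Among the small heat shock proteins only Hspb1 was named on the array. Hspb1, or HSP27, which holds unfolded proteins and binds actin, had 13.10, 13.48 and 13.00 in Ts65Dn at 19-20 dpp, against 13.92, 13.90 and 13.95 at 16-17 dpp. Arrays of Ts1Cje mice gave 12.22, 13.35 and 13.04 at 19-20 dpp, against 13.51, 14.12 and 13.45 at 16-17 dpp. Arrays of WT mice gave 12.20, 13.26 and 12.94 at 19-20 dpp, against 14.00, 14.29 and 14.00 at 16-17 dpp. All older arrays were below all younger ones of the same genotype, with replicate 1 far down in both older Ts1Cje and older WT. It was at −0.73 ± 0.29 in Ts65Dn (adjusted p = 0.11), changed by −0.82 ± 0.29 in Ts1Cje (adjusted p = 0.033) and fell by 1.30 on the log2 scale in WT (SE 0.29, adjusted p = 0.0041), the largest fall among the members there. The Ts1Cje call was lost without Ts1Cje 19-20 dpp replicate 1 (−0.50, adjusted p = 0.19) or Ts1Cje 16-17 dpp replicate 2 (−0.61, adjusted p = 0.15), and with array weights (−0.34, adjusted p = 0.24).

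Hspbap1, a protein that binds HSPB1, had 11.47, 11.84 and 11.81 in Ts65Dn at 19-20 dpp, against 11.97, 12.10 and 11.94 at 16-17 dpp. In Ts1Cje it had 11.14, 11.63 and 11.27 at 19-20 dpp, against 11.57, 12.13 and 11.97 at 16-17 dpp. In WT it had 11.30, 11.28 and 11.73 at 19-20 dpp, against 11.61, 12.59 and 12.19 at 16-17 dpp. The age groups were just apart in Ts65Dn and overlapped in Ts1Cje and WT. It was at −0.29 ± 0.23 in Ts65Dn (adjusted p = 0.41) and −0.54 ± 0.23 in Ts1Cje (adjusted p = 0.071) and changed by −0.69 ± 0.23 in WT (adjusted p = 0.026), so that limma called it in WT alone, a difference between genotypes that did not pass (interaction with Ts65Dn 0.40 ± 0.33, adjusted p = 0.60). That call was lost without either replicate 2 or 3 of WT at 16-17 dpp or replicate 1 or 2 of WT at 19-20 dpp (adjusted p 0.075 to 0.13) and with median scaling (adjusted p = 0.072).

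Of the HSP90 genes 1 of 2 was called with age, lower at 19-20 dpp in Ts1Cje and in WT. Beside this 50%, 45.3% of all probes were called in Ts1Cje and 46.7% in WT. Hsp90ab1, the constitutive form, had 14.51, 14.80 and 14.82 in Ts65Dn at 19-20 dpp, against 14.77, 15.0 and 15.13 at 16-17 dpp. Its values in Ts1Cje were 13.79, 14.69 and 14.54 at 19-20 dpp, against 15.07, 14.99 and 15.06 at 16-17 dpp. Its values in WT were 14.00, 14.24 and 14.54 at 19-20 dpp, against 14.75, 15.34 and 15.01 at 16-17 dpp. The ages overlapped in Ts65Dn and were apart in Ts1Cje and WT. The change was −0.26 ± 0.23 in Ts65Dn (adjusted p = 0.46), −0.70 ± 0.23 in Ts1Cje (adjusted p = 0.021) and −0.77 ± 0.23 in WT (adjusted p = 0.014). Both other probes of the gene were also called lower in Ts1Cje (−0.73 and −0.80) and in WT (−0.92 and −0.72). The WT call of the brightest probe was lost without WT 16-17 dpp replicate 2 (adjusted p = 0.067) or WT 19-20 dpp replicate 1 (adjusted p = 0.069). That in Ts1Cje was lost without Ts1Cje 19-20 dpp replicate 1 (−0.43, adjusted p = 0.12) or Ts1Cje 16-17 dpp replicate 3 (−0.69, adjusted p = 0.05).

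Hsp90aa1, the inducible form, which mouse spermatocytes need to get beyond pachytene, had 12.93, 12.33 and 12.66 in Ts65Dn at 19-20 dpp, against 12.53, 12.03 and 11.90 at 16-17 dpp. Arrays of Ts1Cje mice gave 12.97, 12.34 and 12.43 at 19-20 dpp, against 12.61, 11.84 and 12.16 at 16-17 dpp. Arrays of WT mice gave 12.82, 12.90 and 12.66 at 19-20 dpp, against 12.75, 11.82 and 12.17 at 16-17 dpp. The ages overlapped in each genotype. It was at 0.49 in Ts65Dn, 0.38 in Ts1Cje and 0.55 ± 0.27 in WT (adjusted p = 0.10), not called in any of them, and its other probes were at 0.38 and 0.84 in WT, likewise not called.

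Of the HSP70 family 4 genes were tested and 1 was called with age, in Ts1Cje and in WT. Beside this 25%, 45.3% of all probes were called in Ts1Cje and 46.7% in WT. Hspa5, or BiP, the HSP70 of the endoplasmic reticulum, had 9.30, 8.98 and 9.20 in Ts65Dn at 19-20 dpp, against 9.49, 9.26 and 8.85 at 16-17 dpp. In Ts1Cje it had 8.87, 8.15 and 8.57 at 19-20 dpp, against 9.74, 9.17 and 9.49 at 16-17 dpp. In WT it had 8.68, 8.99 and 8.55 at 19-20 dpp, against 9.42, 9.05 and 9.72 at 16-17 dpp. The older arrays lay among the younger ones in Ts65Dn and below them in Ts1Cje and WT. The change was −0.04 ± 0.24 in Ts65Dn (adjusted p = 0.93), −0.93 ± 0.24 in Ts1Cje (adjusted p = 0.0058) and −0.65 ± 0.24 in WT (adjusted p = 0.034). The interaction of age with Ts65Dn was 0.61 ± 0.33 and did not pass (adjusted p = 0.41). The WT call was lost without WT 16-17 dpp replicate 1 (−0.64, adjusted p = 0.064) or 3 (−0.49, adjusted p = 0.14), without WT 19-20 dpp replicate 1 (−0.62, adjusted p = 0.095) or 3 (−0.56, adjusted p = 0.10), with median scaling (adjusted p = 0.071) and with all probes kept (adjusted p = 0.058).

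Hspa8, the constitutive HSP70 of the cytosol, had 15.44, 15.42 and 15.49 in Ts65Dn at 19-20 dpp, against 15.51, 15.27 and 14.90 at 16-17 dpp. Its values in Ts1Cje were 14.55, 15.08 and 15.22 at 19-20 dpp, against 15.10, 15.22 and 15.05 at 16-17 dpp. Its values in WT were 14.81, 15.22 and 15.03 at 19-20 dpp, against 15.34, 15.09 and 15.52 at 16-17 dpp. Ages overlapped in all genotypes, and the 3 older Ts65Dn arrays were above every older array of Ts1Cje and WT. Its age changes were 0.22 in Ts65Dn, −0.18 in Ts1Cje and −0.30 in WT (SE 0.20 each), none called. Its deposited signal was the highest of all member probes, up to 56420, and its second probe was at −0.02 in Ts65Dn, −0.40 in Ts1Cje and −0.15 in WT, also not called.

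Hspa4l, an HSP110 relative that mouse testis expresses strongly and that acts as an exchange factor for HSP70, had 9.60, 8.73 and 9.11 in Ts65Dn at 19-20 dpp, against 8.32, 8.46 and 8.07 at 16-17 dpp. Arrays of Ts1Cje mice gave 9.78, 9.21 and 8.97 at 19-20 dpp, against 9.45, 7.72 and 9.25 at 16-17 dpp. Arrays of WT mice gave 9.64, 9.30 and 9.46 at 19-20 dpp, against 9.57, 8.30 and 8.61 at 16-17 dpp. The ages were apart in Ts65Dn and overlapped in the other genotypes, where replicate 1 of the younger group was high. Its changes of 0.87 in Ts65Dn, 0.52 in Ts1Cje and 0.64 in WT carried an SE of 0.41 and were not called. Hspa9, the mitochondrial mortalin, was at 0.33 ± 0.14 in WT (adjusted p = 0.066).

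Cytosolic chaperonin, BAG and FKBP genes each included 1 member that rose in WT. Cct4, a subunit of the TRiC chamber that folds actin and tubulin, had 14.79, 14.68 and 14.84 in Ts65Dn at 19-20 dpp, against 14.49, 14.53 and 14.75 at 16-17 dpp. In Ts1Cje it had 15.04, 15.08 and 14.82 at 19-20 dpp, against 14.97, 14.47 and 14.73 at 16-17 dpp. In WT it had 15.12, 14.93 and 15.12 at 19-20 dpp, against 14.64, 14.65 and 14.61 at 16-17 dpp. The ages of Ts65Dn and Ts1Cje overlapped, whereas those of WT were well apart. Cct4 was at 0.18 in Ts65Dn and 0.26 in Ts1Cje and rose by 0.42 ± 0.14 in WT (adjusted p = 0.028). The call was lost without WT 16-17 dpp replicate 2 or 3 or WT 19-20 dpp replicate 1 or 3 (adjusted p 0.064 to 0.091). Cct3, another subunit, was at 0.31 in Ts65Dn, 0.27 in Ts1Cje and 0.18 in WT, not called.

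Bag6, a scaffold that sorts misplaced membrane proteins and that mouse spermatocytes need for meiosis, had 13.20, 13.16 and 13.01 in Ts65Dn at 19-20 dpp, against 12.91, 13.05 and 12.99 at 16-17 dpp. Its values in Ts1Cje were 13.83, 13.48 and 13.33 at 19-20 dpp, against 13.19, 12.98 and 12.90 at 16-17 dpp. Its values in WT were 13.72, 13.56 and 13.50 at 19-20 dpp, against 13.09, 12.99 and 12.93 at 16-17 dpp. The ages overlapped in Ts65Dn, whose older arrays were all below those of Ts1Cje and WT, and were apart in Ts1Cje and WT. Bag6 was at 0.14 ± 0.15 in Ts65Dn (adjusted p = 0.53) and rose by 0.52 ± 0.15 in Ts1Cje (adjusted p = 0.0097) and by 0.59 ± 0.15 in WT (adjusted p = 0.0062). Bag4, which silences death receptors, was at 0.01 in WT.

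Fkbp4, an FKBP that partners HSP90 on steroid receptors, had 14.82, 14.93 and 14.84 in Ts65Dn at 19-20 dpp, against 14.78, 14.91 and 14.83 at 16-17 dpp. Arrays of Ts1Cje mice gave 15.31, 15.40 and 14.89 at 19-20 dpp, against 14.74, 15.0 and 14.82 at 16-17 dpp. Arrays of WT mice gave 15.53, 15.31 and 15.04 at 19-20 dpp, against 14.76, 15.04 and 14.75 at 16-17 dpp. The Ts65Dn arrays of both ages lay within a narrow band, while the older Ts1Cje and WT arrays spread upwards from the younger ones. The ages overlapped in Ts1Cje, and in WT they were just apart, the lowest older and the highest younger array both standing at 15.04 after rounding. Fkbp4 was at 0.02 in Ts65Dn (adjusted p = 0.94) and 0.35 in Ts1Cje (adjusted p = 0.094) and rose by 0.45 ± 0.16 in WT (adjusted p = 0.037). The WT call was lost without WT 16-17 dpp replicate 1 or 3 or WT 19-20 dpp replicate 1 or 2 (adjusted p 0.078 to 0.16). The other way, Fkbp2, an FKBP of the endoplasmic reticulum, was at −0.01 in Ts65Dn and changed by −0.60 ± 0.14 in Ts1Cje (adjusted p = 0.0044) and −0.46 ± 0.14 in WT (adjusted p = 0.019), while Fkbp14, which assists collagen folding there, was at −0.55 in WT, not called. The WT call of Fkbp2 was lost without WT 16-17 dpp replicate 2 or 3 or WT 19-20 dpp replicate 1 (adjusted p 0.066 to 0.073) and with median scaling (adjusted p = 0.14).

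**Figure D2:**
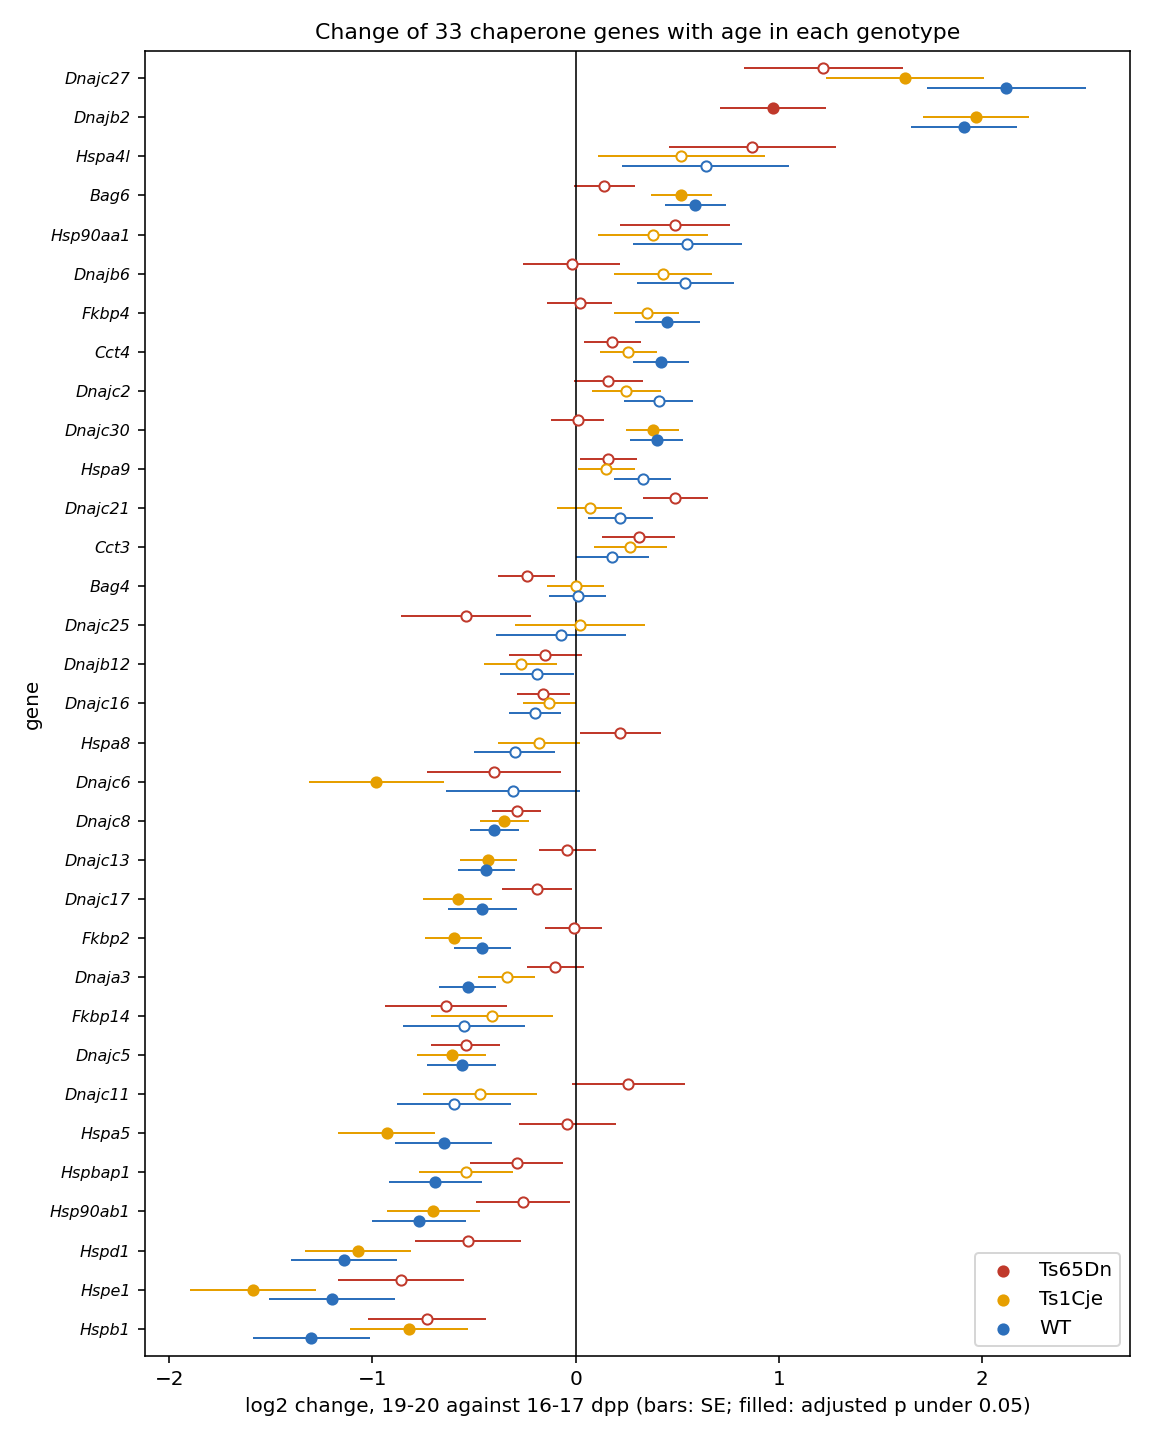
Log2 change from 16-17 to 19-20 dpp of the 33 tested members in Ts65Dn, Ts1Cje and WT, with the standard error as a bar and filled points for an adjusted p under 0.05. Filled points number 1 in Ts65Dn, 15 in Ts1Cje and 18 in WT.

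In Ts1Cje, whose arrays are separate from those of WT, 15 of 33 members were called with age, 4 higher and 11 lower, where 45.3% of all probes, 18% higher and 27.3% lower, and 50.2% of named genes were called. The same direction was called in both genotypes for 14 members, 93.3% of the 15 in Ts1Cje and 77.8% of the 18 in WT. Over named genes the shares called in both were 77.4% of those called in Ts1Cje and 77.6% of those called in WT. The arrays of the ages did not overlap for 17 of 33 members, 51.5%, beside 48.4% of all probes. The one member called in Ts1Cje and not in WT was Dnajc6, auxilin, which strips clathrin from vesicles (interaction of age with Ts1Cje not called). Without any 1 array 7 members kept their call, which were Bag6, Dnajb2, Dnajc27, Fkbp2, Hspa5, Hspd1 and Hspe1. A fit of only both Ts1Cje groups called 3 members, Dnajb2, Dnajc27 and Hspe1, beside 16.8% of all probes. The other 12 had an adjusted p between 0.057 and 0.24 there. Median scaling ended the calls of Dnajc8, Dnajc30 and Hspb1 (adjusted p 0.087 to 0.16), and keeping all probes those of Dnajc6 and Hspb1 (adjusted p 0.056 and 0.065). Leaving out Ts1Cje 19-20 dpp replicate 1 left 7 calls, and this was the array that lay farthest from its group mean for 23 of 33 members and for 65.1% of all probes. The lowest correlation between replicates of that group was 0.925, and the array had 17086 detected probes, the fewest of the 18 arrays.

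In Ts65Dn 1 of 33 members was called with age, Dnajb2, where 8.7% of all probes, 6.16% higher and 2.54% lower, and 7.71% of named genes were called. Without Ts65Dn 16-17 dpp replicate 1, 2 or 3 or Ts65Dn 19-20 dpp replicate 1 or 3 the call of Dnajb2 was lost and limma called 0 members, with an adjusted p between 0.054 and 0.20 for Dnajb2 and changes between 0.77 and 1.11. Another 7 members had an unadjusted p under 0.05, as had 30.4% of all probes. The groups of the 2 ages nevertheless did not overlap for 17 members, 51.5%, beside 48.1% of all probes. All 18 members called in WT had the WT sign in Ts65Dn (94.4% of the named genes called in WT did). For the 15 members called in Ts1Cje, the median change in the Ts1Cje direction was 0.29 in Ts65Dn and 0.59 in WT. For the 2416 named genes called in Ts1Cje it was 0.43 in Ts65Dn and 0.86 in WT.

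Ts65Dn was then set against WT at 19-20 dpp, on arrays that the WT age comparison also uses. Here 1 of 33 members was called, Dnajb2, where 4.81% of all probes, 1.8% higher and 3.01% lower, and 4.32% of named genes were called. Its 3 Ts65Dn arrays, between 12.73 and 13.37, all lay below the 3 WT arrays, between 13.87 and 14.21. The difference was −1.04 ± 0.26 (log2, SE, n = 3 and 3, adjusted p = 0.041). It was called under 8 of 9 other settings, the exception being all probes kept (adjusted p = 0.066). The call was lost without WT 19-20 dpp replicate 1 (−0.93, adjusted p = 0.20), 2 (−1.08, adjusted p = 0.062) or 3 (−1.10, adjusted p = 0.077) and without Ts65Dn 19-20 dpp replicate 2 (−0.92, adjusted p = 0.21) or 3 (−0.95, adjusted p = 0.16). It was kept without Ts65Dn 19-20 dpp replicate 1 (−1.24, adjusted p = 0.021), when Dnajc27 was called as well (−1.48, adjusted p = 0.036) and the count was 2.

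Other members were not called in Ts65Dn against WT at 19-20 dpp, and 9 of 33 members in all had an unadjusted p under 0.05, 5 higher and 4 lower, where 30.7% of all probes had one. Dnajc27 was at −1.13 ± 0.39 (adjusted p = 0.083), Bag6 at −0.47 ± 0.15 (adjusted p = 0.067) and Fkbp4 at −0.43 ± 0.16 (adjusted p = 0.10). On the other side were Dnajc11 at 0.85 ± 0.28 (adjusted p = 0.074), Hspd1 at 0.79 ± 0.26 (adjusted p = 0.077), Hspe1 at 0.78 ± 0.31 (adjusted p = 0.12) and Hspa8 at 0.43 ± 0.20 (adjusted p = 0.15), though the second Hspa8 probe was at 0.11. Dnajc11 was detected on all 3 older Ts65Dn arrays but on only 1 of 3 older WT arrays, where its values were near the detection limit. Some of these calls turned on the fit. With each run of 6 consecutive array numbers as a block, a setting added after the data were seen, Dnajc27, Bag6, Fkbp4 and Hspd1 were called too (adjusted p 0.034 to 0.047), beside 12.9% of all probes. With array weights 13 members were called, beside 49.1% of all probes. Bag6 was also called without background correction and in the deposited table (adjusted p = 0.047 in each). Groups did not overlap for 15 members, 6 with Ts65Dn higher and 9 with it lower, which is 45.5% beside 45% of all probes. The members' median difference was 0.11, as was that of all probes. With each array scaled to its median, the all-probe median of this comparison moved to 0.25, that of the same comparison at 16-17 dpp to 0.14, and that of Ts65Dn against Ts1Cje at 19-20 dpp to 0.26.

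**Figure D3:**
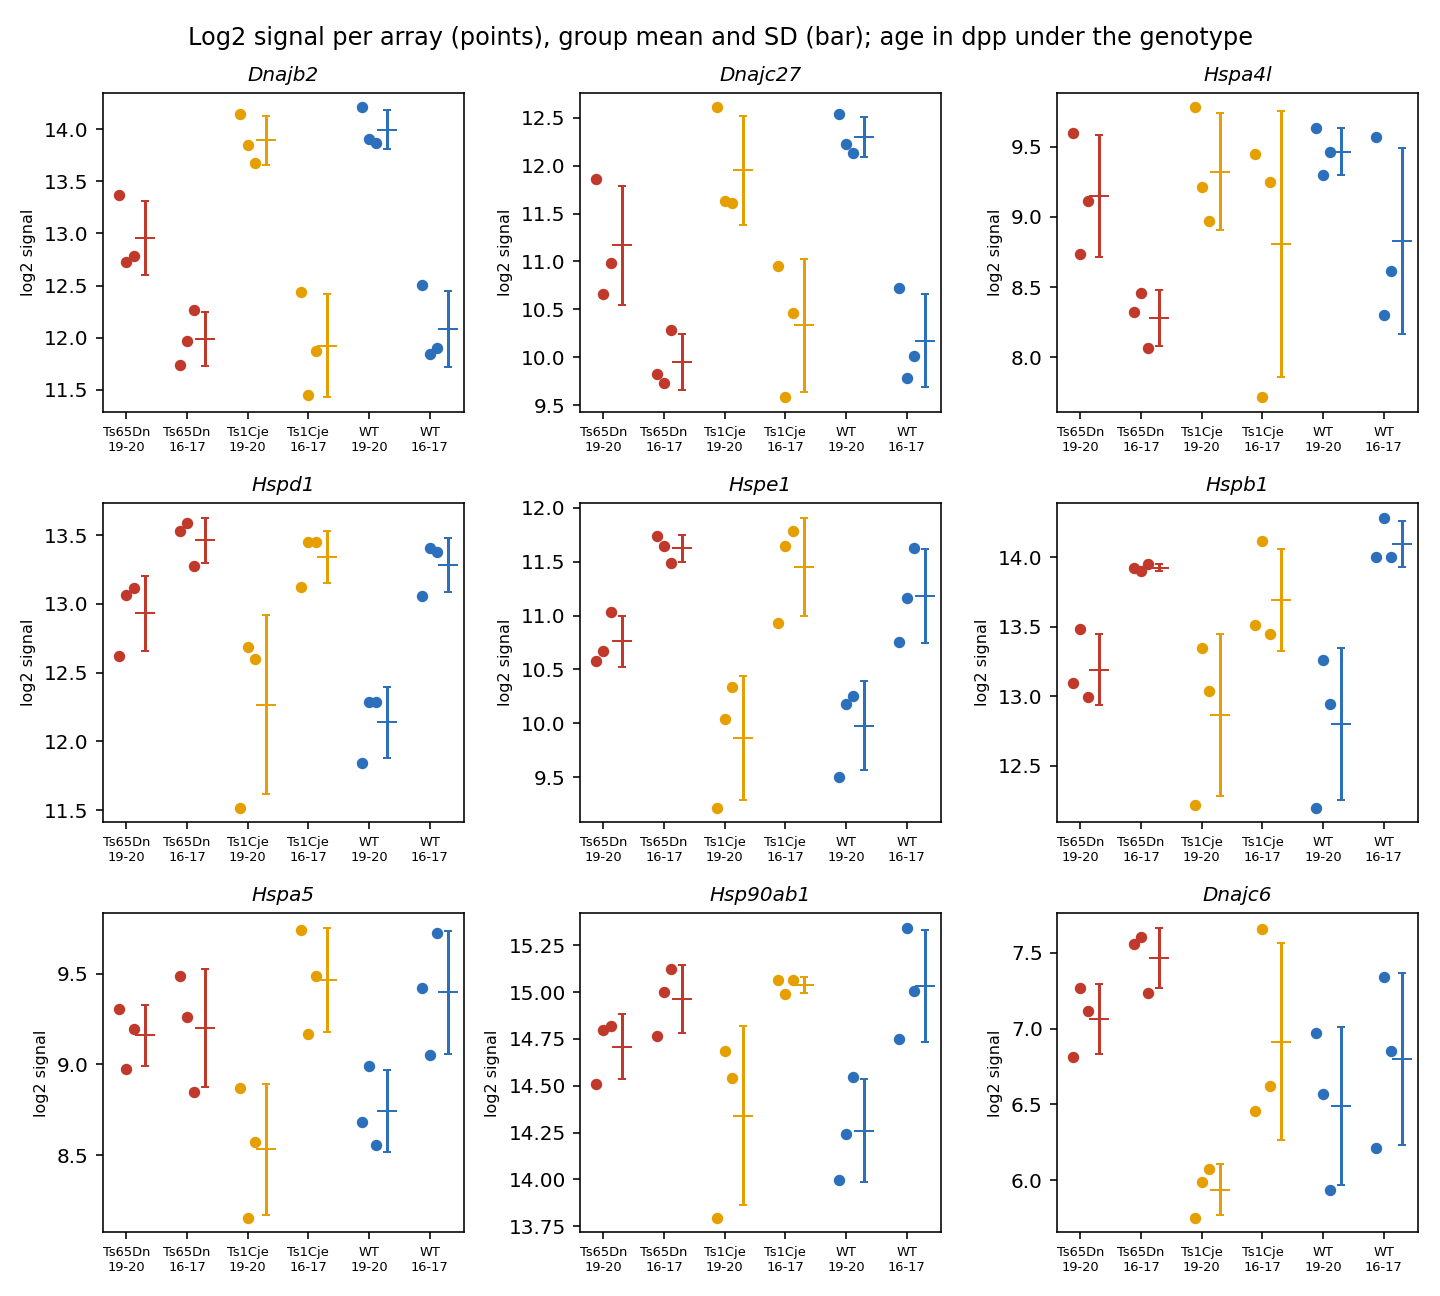
Log2 signal of 9 members on each array (points), with the group mean and SD as a bar, for Ts65Dn, Ts1Cje and WT, each at 19-20 and then 16-17 dpp. For Dnajb2 the older Ts65Dn arrays lie between the younger arrays of all genotypes and the older arrays of Ts1Cje and WT.

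The genotype differences at 19-20 dpp were also set beside the age changes of Ts1Cje, which share no array with them. Of 33 members 30 had opposite signs in Ts65Dn against WT at 19-20 dpp and in the Ts1Cje age change, which is 90.9%, beside 87.2% of all tested probes. The Pearson correlation across the 33 members was −0.92, and −0.87 without Dnajb2 and Dnajc27. Across all probes it was likewise −0.87. Genes share arrays and are not independent replicates, so these are descriptions. For a difference of the age change between Ts65Dn and WT, the interaction term, limma called 0 of 33 members and 0% of all probes, with 5 members and 14.4% of all probes at an unadjusted p under 0.05. The largest was that of Dnajb2, −0.94 ± 0.37 (adjusted p = 0.27). With array weights 9 members were called, beside 24.5% of all probes, and 0 members under each of the other settings and without any 1 array.

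**Figure D4:**
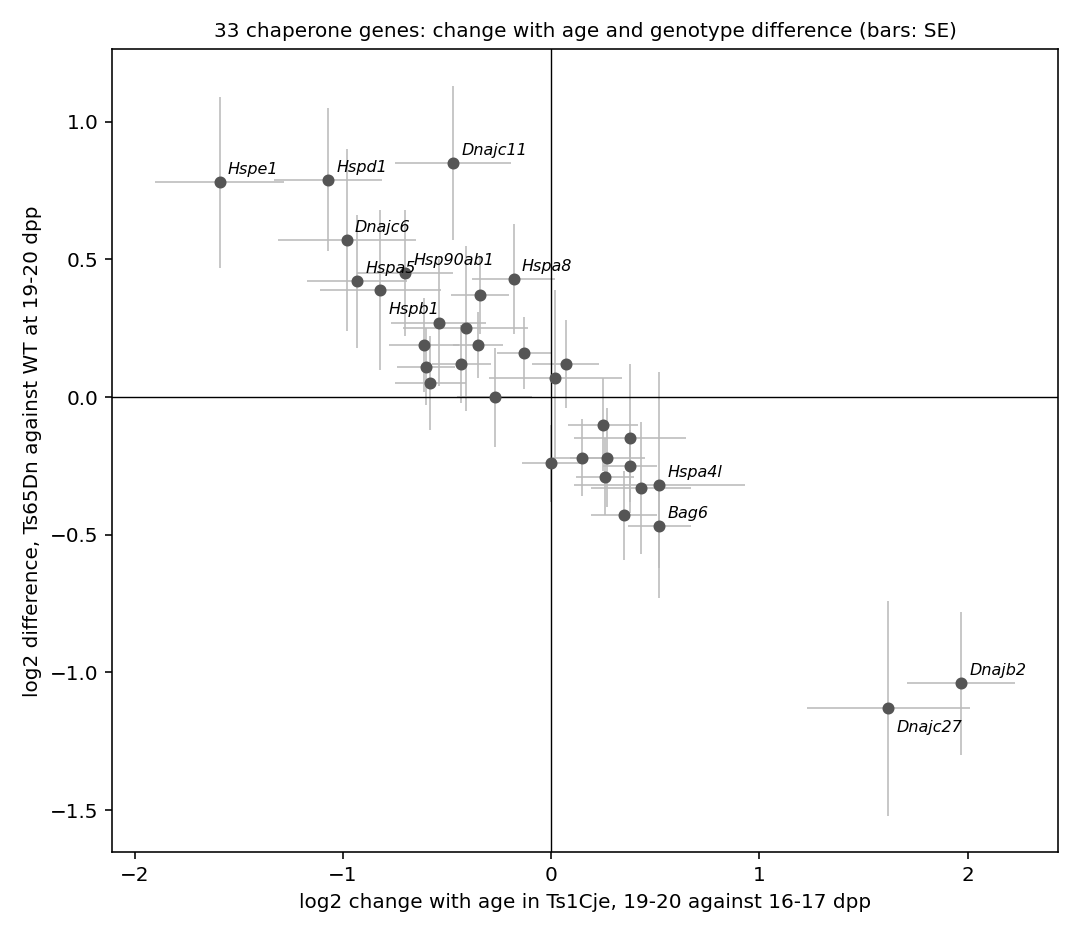
Each point is 1 of 33 members, with its log2 change from 16-17 to 19-20 dpp in Ts1Cje on the horizontal axis, its log2 difference of Ts65Dn against WT at 19-20 dpp on the vertical axis, and standard errors as bars. The points run from Hspe1 at upper left to Dnajb2 and Dnajc27 at lower right (Pearson correlation −0.92 across members).

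Against Ts1Cje at 19-20 dpp, 2 of 33 members were called in Ts65Dn, where 11.7% of all probes, 7.31% higher and 4.42% lower, and 12.8% of named genes were called. Dnajb2 was lower in Ts65Dn (−0.93 ± 0.26, log2, SE, adjusted p = 0.037), with the same Ts65Dn arrays as in the comparison with WT. Dnajc6, auxilin, had 6.81, 7.27 and 7.12 in Ts65Dn at 19-20 dpp, against 5.75, 5.99 and 6.07 in Ts1Cje at 19-20 dpp. In WT it had 6.97, 6.57 and 5.94 at that age. At 16-17 dpp it had 7.56, 7.60 and 7.24 in Ts65Dn, 6.46, 7.66 and 6.62 in Ts1Cje and 6.21, 7.34 and 6.85 in WT. The Ts65Dn arrays were above the Ts1Cje arrays at 19-20 dpp and overlapped those of WT. The signal was detected on all 3 older Ts65Dn arrays and on none of the older Ts1Cje arrays, so the fold is a bound. It sets the Ts65Dn mean against, on each Ts1Cje array, the higher of the probe's value and the lowest detected signal. Dnajc6 was at least 1.30-fold higher in Ts65Dn by this bound, and the log2 difference that limma tested was 1.13 (adjusted p = 0.043). A second probe of Dnajc6 was detected on no array and was not tested. With age in Ts1Cje Dnajc6 changed by −0.98 (log2, limma adjusted p = 0.027). Only 1 of the 3 younger Ts1Cje arrays and none of the older ones detected it, so no bound on that fold is given. That age call was lost without Ts1Cje 16-17 dpp replicate 2 (adjusted p = 0.15) or Ts1Cje 19-20 dpp replicate 1 (adjusted p = 0.091).

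Neither call in Ts65Dn against Ts1Cje withstood all changes. Both were lost without Ts1Cje 19-20 dpp replicate 1 and without Ts65Dn 19-20 dpp replicate 2 or 3, when limma called 0 members, with an adjusted p between 0.13 and 0.16 for each. Dnajc6 further lost its call when Ts1Cje 19-20 dpp replicate 2 was left out (adjusted p = 0.057). Without Ts1Cje 19-20 dpp replicate 3 limma called 5 members. A fit of only these groups called 0 members (adjusted p = 0.14 for Dnajb2 and 0.098 for Dnajc6), beside 0.0141% of all probes. With all probes kept both missed (adjusted p 0.064 and 0.081), when 2.97% of all probes were called. Of the 33 members 9 had an unadjusted p under 0.05, where 32.2% of all probes had one, and 11 did not overlap between the groups, 33.3%, the same share as over all probes.

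In the remaining comparisons limma called 0 members. Ts1Cje against WT had 0 of 33 members at an unadjusted p under 0.05 both at 16-17 and at 19-20 dpp, and 0% of all probes called. Their arrays did not overlap for 0 of 33 members at 16-17 dpp, beside 4.73% of all probes, and for 1 at 19-20 dpp, beside 5.25%. The interaction of age with Ts1Cje gave 0 called, 0 at an unadjusted p under 0.05 and 0% of all probes. Ts65Dn against WT at 16-17 dpp gave 0 called, with 0.0187% of all probes and 0.0208% of named genes called and 1 member, Fkbp2, at an unadjusted p under 0.05 (adjusted p = 0.60), beside 7.76% of all probes. Arrays did not overlap for 5 members, beside 19.5% of all probes. With array weights 1 member was called lower there, beside 2.28% of all probes. Ts65Dn against Ts1Cje at 16-17 dpp gave 0 called and 0% of all probes, with Fkbp2 again the 1 member at an unadjusted p under 0.05 (adjusted p = 0.95), beside 5.08% of all probes, and arrays did not overlap for 4 members, beside 11.9% of all probes. With the members' median SE of 0.18, a difference had to reach 0.39 for an unadjusted p of 0.05, and an interaction 0.55.

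Other genes of the chaperone network and the unfolded protein response included calls in both directions with age. Of a list of 74 such genes 26 were named on the array and 25 tested. With age limma called 0 of them in Ts65Dn, where 8.7% of all probes were called and no other setting was run on this list. In Ts1Cje 2 rose and 8 fell, which is 40% of the list, beside 45.3% of all probes called. In WT 2 rose and 6 fell, 32% of the list, beside 46.7% of all probes. Their median changes were −0.10 in Ts65Dn, −0.27 in Ts1Cje and −0.25 in WT, beside −0.09, −0.21 and −0.23 over all probes. Cdc37l1, a relative of the HSP90 partner CDC37, was at 0.54 in Ts65Dn (adjusted p = 0.14) and rose by 1.34 ± 0.24 in Ts1Cje (adjusted p = 0.00084) and by 1.31 ± 0.24 in WT (adjusted p = 0.0011). Clgn, the germ cell chaperone calmegin of the endoplasmic reticulum, was at 1.73 in Ts65Dn (adjusted p = 0.092) and rose by 2.12 ± 0.64 in Ts1Cje (adjusted p = 0.015) and by 1.62 ± 0.64 in WT (adjusted p = 0.049). The 4 largest called falls in WT were −1.08 for Tor2a, a torsin ATPase of the endoplasmic reticulum, −0.97 for Calr3, a testis calreticulin, −0.95 for Clpb, a mitochondrial disaggregase, and −0.88 for Xbp1, a transcription factor of the unfolded protein response. Serpinh1 was lower still in WT but not called (−1.12 ± 0.47, adjusted p = 0.062). It was at −0.41 in Ts65Dn, not called, and fell by 1.97 on the log2 scale in Ts1Cje (adjusted p = 0.0043). Between genotypes Cdc37l1 was lower in Ts65Dn at 19-20 dpp than in WT (−0.89 ± 0.24, adjusted p = 0.046) and Ts1Cje (−0.80 ± 0.24, adjusted p = 0.041). Clpb was higher in Ts65Dn than in Ts1Cje at 19-20 dpp (1.17 ± 0.29, adjusted p = 0.026). These calls were 4% of the list against WT, beside 4.81% of all probes, and 8% against Ts1Cje, beside 11.7%.

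Marker genes of stages and of other testis cells moved with the same comparisons, and their part in the members' changes was not tested. Of pachytene to diplotene markers (Acr, Aurkc, Zpbp) 3 of 3 rose with age in Ts65Dn, Ts1Cje and WT, and their summed signal at 19-20 dpp was 6040 to 13100 in Ts65Dn, 15000 to 32600 in Ts1Cje and 19200 to 27800 in WT. At 16-17 dpp it was 1690 to 2460 in Ts65Dn, 1480 to 6000 in Ts1Cje and 2130 to 6230 in WT. Of round spermatid markers 3 of 6 rose in Ts65Dn, 6 of 6 in Ts1Cje and 5 of 6 in WT, with sums at 19-20 dpp of 9370 to 19900 in Ts65Dn, 23700 to 57100 in Ts1Cje and 24900 to 43800 in WT. At 16-17 dpp those sums were 2580 to 3660, 1850 to 6790 and 2630 to 7540 in the same genotypes. Of genes listed for meiotic prophase 2 were tested, Mei1 and Smc3, the latter a cohesin core subunit and so not particular to that stage. By limma 0 of 2 fell in Ts65Dn and 2 of 2 in Ts1Cje and WT. Their sums at 19-20 dpp were 1120 to 1610 in Ts65Dn, 511 to 900 in Ts1Cje and 787 to 860 in WT, and at 16-17 dpp 1860 to 2290, 1710 to 2430 and 1460 to 1680 in the same genotypes. At 19-20 dpp Smc3 was higher in Ts65Dn than in WT (adjusted p = 0.049), and both were higher in Ts65Dn than in Ts1Cje. Spermatogonial markers fell in 0 of 4 cases in Ts65Dn by limma, 4 of 4 in Ts1Cje and 2 of 4 in WT. Of 5 Sertoli markers named on the array 4 passed the detection limit set for testing (Aard, Dhh, Gata4, Wt1), and Ctsl did not. Of the 4 tested markers 3 fell with age in WT, with sums of 52900 to 65300 at 19-20 dpp, against 66500 to 73700 at 16-17 dpp. In Ts1Cje and Ts65Dn limma called 0 of 4 Sertoli markers, though 4 of 4 lay below 0 in Ts1Cje and 3 of 4 in Ts65Dn. Peritubular markers fell in 5 of 5 cases in Ts1Cje, with sums of 3220 to 11700 at 19-20 dpp, against 17700 to 20300 at 16-17 dpp. In Ts65Dn and WT limma called 0 of 5 peritubular markers, though all 5 lay below 0 in each. The sums there were 9410 to 10900, against 16500 to 19500, in Ts65Dn and 3640 to 13000, against 9210 to 20400, in WT. Leydig markers fell in 4 of 6 cases in Ts65Dn, with sums of 522 to 644 at 19-20 dpp, against 1620 to 4280 at 16-17 dpp, and macrophage markers in 2 of 4, with sums of 300 to 369, against 1010 to 1450. In Ts1Cje and WT limma called 0 of 6 Leydig and 0 of 4 macrophage markers. Leydig sums were 600 to 2670, against 792 to 2450, in Ts1Cje and 779 to 957, against 1130 to 1190, in WT. Macrophage sums were 389 to 2250, against 820 to 2820, in Ts1Cje and 467 to 920, against 459 to 1580, in WT. At 19-20 dpp all 4 spermatogonial markers were higher in Ts65Dn than in Ts1Cje, with sums of 2990 to 3910, against 1250 to 2140. Endothelial markers (Eng, Pecam1) fell in 0 of 2 cases in Ts65Dn by limma, 2 of 2 in Ts1Cje and 1 of 2 in WT. Their sums at 19-20 dpp were 486 to 663 in Ts65Dn, at most 485 in Ts1Cje and 204 to 414 in WT, and at 16-17 dpp 715 to 783, 626 to 654 and 449 to 663 in the same genotypes. Eng was higher in Ts65Dn than in WT at 19-20 dpp (1.43 ± 0.34, log2, adjusted p = 0.035). Junb, the one gene tested for dissociation stress, was at −0.40 in Ts65Dn, not called, and changed by −1.87 in Ts1Cje and −1.37 in WT, both called.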

How the data were processed

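Total RNA of enriched germ cells was hybridised to Illumina MouseWG-6 v1.1 arrays, 18 arrays in 6 groups of 3. Per the file headers, each array's deposited file holds an average signal intensity and a detection p-value for 46657 probes. The submitters' processing notes name BeadStudio, whose version was not given in the sources used here. A deposited series table holds log2 values that match quantile-normalised signals, and it served as an alternative. The labels call the samples of a group biological replicates.

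Of the probes 361 controls were left out. Signals were background-corrected with limma's nec (offset 16) and quantile-normalised, and 21337 probes with a detection p under 0.05 on at least 3 arrays were tested with 1 limma model of 6 group means, 11 contrasts and Benjamini-Hochberg adjustment. Log2 changes carry limma's SE. The code was tested on simulated data. The precision is limited by 3 arrays a group. Detected probes numbered 17086 to 19767 and array medians were 179.4 to 225.2.

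Genes were named by matching the zero-padded number in a probe's target identifier to the RefSeq gene number (9796 of 11857 matched). A gene is represented by its brightest tested probe. Values of every array are given for members called between genotypes, the 6 largest called changes each way with age in WT, and 5 members known from germ cells or stress. Members, gene lists and motifs were chosen with earlier results of these data known. Sequences are those of RefSeq. Alternatives were median scaling, no background correction, the deposited table, all probes, probes detected on all arrays, a fit of only the groups compared, array weights, blocks by sample number or by array number, and leaving out each array. Fits used limma 3.58.1 and statmod 1.5.0 under R 4.3.3, and promoters and plots used pandas 2.3.3 and matplotlib 3.10.9 under python 3.11.15.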

Additional observations from a re-analysis of the deposited data

How the results depend on the processing

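The members called with age in WT, 18, became 10 with median scaling, 11 when only both WT groups were fitted and 8 to 17 when 1 array was left out. The share of all probes called was 46.7% in the main fit, 33.2% with median scaling and 45.4% with only both WT groups. The members called with age in Ts1Cje, 15, became 3 with only the groups compared and 7 to 17 with 1 array left out. There the share of all probes called fell from 45.3% to 16.8% with only the groups compared. The single member called with age in Ts65Dn became 2 with median scaling, 3 without background correction, 3 with the deposited series table, 0 by limma with all probes kept, 8 with only the groups compared, 15 with array weights and 0 to 1 with 1 array left out. Apart from fits without 1 array, the shares of all probes called were, in that order, 8.31%, 9.72%, 9.73%, 0.637%, 27.6% and 44.2%. The main fit had 8.7%. The 1 member of Ts65Dn against WT at 19-20 dpp became 2 without background correction, 2 with the deposited table, 0 by limma with all probes kept, 13 with array weights and 0 to 2 with 1 array left out. In that order up to array weights the shares of all probes were 5.75%, 5.76%, 0.834% and 49.1%, against 4.81% in the main fit. The 2 members of Ts65Dn against Ts1Cje at 19-20 dpp became 4 without background correction, 4 with the deposited table, 1 with all probes kept, 1 with probes detected on all arrays, 0 by limma with only the groups compared, 10 with array weights and 0 to 5 with 1 array left out. Here the shares of all probes, again up to array weights, were 12.2%, 12.2%, 2.97%, 12.1%, 0.0141% and 33.5%, against 11.7% in the main fit. Array weights also called 1 member in Ts65Dn against WT at 16-17 dpp, beside 2.28% of all probes, and 9 in the interaction of age with Ts65Dn, beside 24.5%. They raised the share of all probes called to 44.2% with age in Ts65Dn and 33.5% in Ts65Dn against Ts1Cje at 19-20 dpp. With the replicate number of the labels as a block, the calls were 7 with age in Ts65Dn, 7 in Ts65Dn against WT at 19-20 dpp and 8 in Ts65Dn against Ts1Cje at 19-20 dpp, beside 25.4%, 23.8% and 25.6% of all probes. In Ts65Dn against WT at 19-20 dpp these included Dnajb2, Dnajc27 (adjusted p = 0.011), Hspd1 (adjusted p = 0.015), Bag6 (adjusted p = 0.019), Hspe1 (adjusted p = 0.022) and Fkbp4 (adjusted p = 0.04). The numbers were not taken as a pairing, since the labels give them no shared source and the deviations of arrays with the same number correlated above 0.1 in 33 of 45 pairs, not in all. Their median correlation was 0.264 and the lowest −0.301, against a median of −0.151 for arrays with different numbers. Of 18 arrays 14 correlated best with an array of their own number, a hint from the data and not from the design that numbers may share a source. With a block by runs of 6 consecutive array numbers in the file headers, chosen after seeing the data, these 3 counts were 6, 5 and 6. Beside them 18.1%, 12.9% and 18.2% of all probes were called, and every run held each group once. Counts not named here stayed within 1.5 times. The changes recomputed were those called and, in Ts65Dn against WT at 19-20 dpp, also those of further named members. None of these turned its sign, and with 1 array left out 70 of these values lost their call and 1 gained one. The signs of other changes that were not called were not checked in this way. The cause of these moves was not tested, except that fewer arrays in a fit leave fewer degrees of freedom. Signal over background limits the arrays at the low end, where 12 members were not tested.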
